A study of Danio rerio with 6 samples.

Results

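In whole zebrafish eyes at 72 hpf, 4 of the genes of proteolysis and its control with a row in the deposited table are described: *serpinb1l2*, *ambp*, *prozb* and *ctsl.1*. They are 4 of its 223 genes (1.79%). They were selected by their gene symbols in that table. The table itself holds genes chosen by the authors on the adjusted p, fold change and FPKM of their comparison, so that these genes have a row is how they were found and is not a result. RNA-seq was made from dissected eyes of crim1-/- larvae and of wildtype controls, and the sample labels list 3 libraries in each of the 2 groups. That number was used, although the text submitted with the series states fewer replicates. The crim1-/- larvae came from in-crosses of homozygous fish without visible eye defects, in a line from a single founder with a small frameshift deletion in *crim1*, and the controls derived from the EKW or the NBT:DsRed strain. The sample titles call the crim1-/- group a knockdown, while the genotype field gives the mutant genotype. Genotype and strain background cannot be told apart in this design.

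Proteases cut other proteins, and their activity in tissues is held in check by inhibitors. Serpins trap serine proteases, and sometimes cysteine proteases, by offering a loop as bait and changing shape when it is cut. Kunitz-type inhibitors such as bikunin block the active site of trypsin-like enzymes without such a change. Cathepsins of the L type are cysteine proteases that degrade proteins in the lysosome. Protein Z is one of the vitamin K-dependent proteins of blood clotting, which are made mainly by the liver in mammals.

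The value analysed for each gene is its mean normalized count over all 6 libraries, as the authors' table gives it: gene counts scaled by DESeq2 size factors and averaged over both groups. It has no SD, because that table holds no values of single libraries, and it does not say in which group a gene was higher. No difference between crim1-/- and control eyes was therefore measured here for any of the genes. The depth of each library is unknown for the same reason. Counts are not scaled by gene length, so an order of genes by this value is an order of reads, not of transcripts.

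*serpinb1l2* (ENSDARG00000070396) encodes a serpin of the clade B group, which in mammals are mostly intracellular inhibitors. Its mean normalized count was 249.0, the highest of the 4 genes. It was 2.24 times the median of all 223 rows, 111.3, and 58 rows had a higher mean. The neighbouring rows by level were *cp*, the plasma copper protein ceruloplasmin, at 252.5 and *flvcr2a* at 244.6. RefSeq annotates 5 zebrafish genes with the symbol *serpinb1* or *serpinb1l* and a number, and *serpinb1l2* is the only one with a row. Over all protein-coding genes, 0.529% match a row by symbol. *serpinb1l2* was chosen for having a row, so nothing is read from this count. In a separate table that pairs gene IDs with names, its ID carries the symbol SERPINB1, which 2 zebrafish gene IDs share. Reads common to such copies would be divided between them by the estimation in RSEM, and how much was shared was not tested.

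The study designed a primer pair for RT-qPCR of this gene. The transcript listed with the pair, not the bases of the primers, fixes which gene the name stands for. Whether the primers also match the other *serpinb1* genes was not tested. The supplementary list calls the target *serpin1l2*, and its transcript is that of *serpinb1l2* in RefSeq. Each primer has 21 bases, written 5′ to 3′ in lower case.
serpinb1l2 forward: agcagatgactctcgccagtt
serpinb1l2 reverse: ctgggatgcatctgtagggaa
The RT-qPCR measurements themselves were not analysed here.

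*ambp* (ENSDARG00000004296) encodes a precursor that is cleaved into alpha-1-microglobulin, a small haem-binding lipocalin, and bikunin, a Kunitz-type inhibitor of trypsin-like proteases. Its mean normalized count was 91.5, or 0.822 times the median of the table, and 123 rows had a higher mean. In mammals bikunin is joined to heavy chains encoded by the ITIH genes to form inter-alpha-trypsin inhibitor. RefSeq annotates 7 zebrafish *itih* genes, and 0 of them have a row, beside 0.529% of all protein-coding genes matched by symbol. With so few genes, nothing is read from this count. A missing row does not show that a gene was absent from the eye or unchanged, since the table holds only genes past the authors' limits.

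*prozb* (ENSDARG00000076900) encodes a protein Z, which in mammals resembles the clotting proteases but lacks a working active site. There it serves as cofactor of a serpin, the protein Z-dependent inhibitor, against clotting factor X. Its mean normalized count was 77.7, the lowest of the 4 genes, or 0.698 times the median, and 136 rows had a higher mean. The mean of *serpinb1l2* was 3.20 times that of *prozb*, while that of *ambp* was 1.18 times and that of *ctsl.1* 1.48 times. None of these differences in reads could be set against a spread between libraries. The related gene *proza*, the inhibitor genes *serpina10a* and *serpina10b* and the factor X gene *f10* have no row. Since only 0.529% of all protein-coding genes match a row by symbol, nothing is read from these missing rows. They do not show that the genes were absent from the eye or unchanged.

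*ctsl.1* (ENSDARG00000003902) encodes a cathepsin L. Its mean normalized count of 114.9 was close to the middle of the table, at 1.03 times the median, with 109 rows higher. Its log2 ratio was 0.05 to the median of all rows but -0.24 to their geometric mean, which is among 3 other middles tried, each giving a ratio below 0. By symbol or synonym, RefSeq annotates 11 cathepsin L genes in zebrafish, and 3 of them have a row. By symbol alone, 0.529% of all protein-coding genes match a row. *ctsl.1* is among the 3 and was chosen for having a row, so nothing is read from this count. The other 2 are the clone-named genes si:dkey-269i1.4, with a mean normalized count of 129.8, and si:dkey-26g8.5, with 37.6. These 2 lie 4 protein-coding genes apart in gene order. The ID of si:dkey-269i1.4 is called *ctslb.4* in that table of names, whereas RefSeq keeps the names as separate genes. The split of reads among these copies is uncertain.

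**Figure D1:**
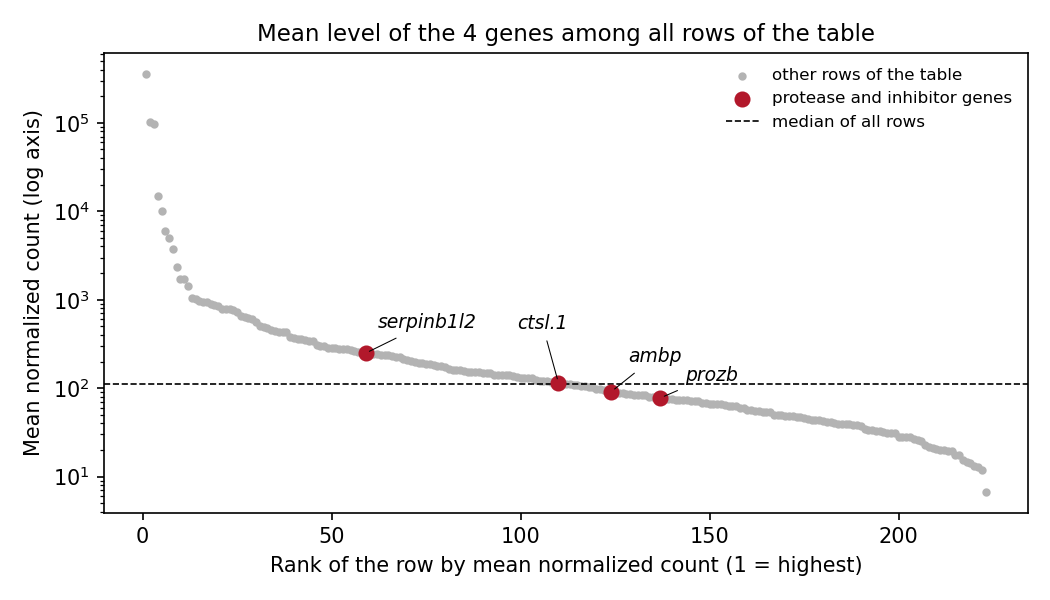
Mean normalized count (log axis) of all 223 rows of the table against their rank by that value, from 1 for the highest; red points are the 4 genes, grey points the other rows and the dashed line the median of 111.3. *serpinb1l2* lies at rank 59, *ctsl.1* near the middle at rank 110, and *ambp* and *prozb* below the median at ranks 124 and 137.

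Other genes of proteolysis were sought by symbol in 7 families, from serpins and cathepsins to the proteasome. Of 301 annotated genes in these families, 7 have a row, the 4 genes described and 3 others. With RefSeq synonyms the number of rows was 9, since the cathepsin genes si:dkey-269i1.4 and si:dkey-26g8.5 are added. Over all protein-coding genes of the RefSeq annotation, 143 of 27039 match a row by symbol (0.529%). The 4 genes were chosen for having a row, and the annotation includes many genes without a family name, so nothing is read from the comparison of these shares. The count by family was 1 of 23 for serpins, 1 of 18 for cathepsins (3 rows with synonyms), 1 of 60 for matrix and ADAM metalloproteases and 1 of 12 for vitamin K-dependent clotting proteins. It was 1 of 38 for inhibitors of other classes, 2 of 103 for the proteasome and cytosolic peptidases, and 0 of 47 for trypsin-like serine proteases. A search by symbol misses proteases of other families and those with clone-based symbols, so these counts, the 0 included, do not cover all proteases.

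The 3 others found by symbol were *tpp2*, *psmb10* and *mmp11b*. *tpp2* encodes tripeptidyl peptidase II, a large cytosolic peptidase that acts on peptides released by the proteasome. Its mean normalized count was 616.3, the highest of the rows in these families. *psmb10* encodes a catalytic subunit of the immunoproteasome and had a mean of 280.1. *mmp11b* encodes a matrix metalloprotease of the stromelysin-3 type and had a mean of 151.2. Of the 4 genes, *serpinb1l2* alone had a higher mean than *mmp11b*.

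**Figure D2:**
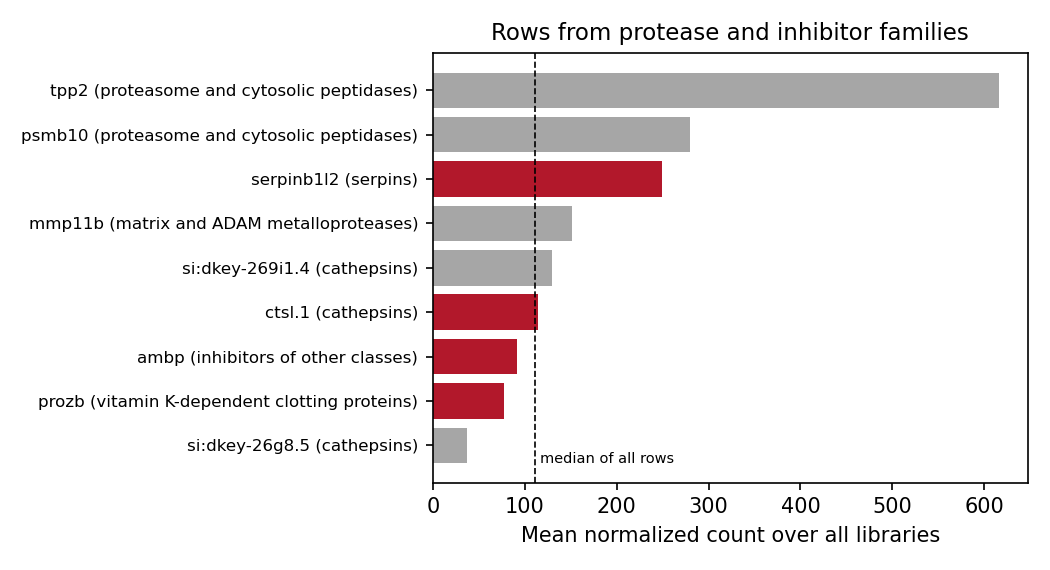
Mean normalized count over all 6 libraries (linear axis from 0) of the 9 rows found in the protease and inhibitor families by symbol or synonym; red bars are the 4 genes, grey bars the others, and the dashed line is the median of all rows, 111.3. *tpp2* at 616.3 is the highest and si:dkey-26g8.5 at 37.6 the lowest.

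Gene order was taken from the RefSeq assembly GRCz12tu, and only the 143 of 223 rows matched to it by symbol could be placed. An unplaced row could lie nearer than those named below, and the counts by chromosome leave such rows out. In this order, *prozb* follows *f7l*, *f7*, *f7i* and *f10* as the last of 5 neighbouring clotting genes. It is the only one of the 5 with a row, but it was chosen for having one, so nothing is read from that. The nearest other row to *prozb* was *tpp2*, 15 protein-coding genes away. *serpinb1l2* lies 2 genes from *serpinb1*, which has no row, and 2 genes from *ftr79*, which has one, with a mean normalized count of 19.99. *ctsl.1* is the single gene of the 4 on the chromosome that carries *crim1*, 167 protein-coding genes from *crim1* and 39 from *clic4*. That chromosome holds 7 rows among 946 protein-coding genes (0.740%), beside 0.529% over all protein-coding genes. The chromosome of *prozb*, which does not carry *crim1*, holds 7 among 1288 (0.543%). The first count includes the targeted gene *crim1* and *ctsl.1* itself, and the second includes *prozb*, so nothing is read from these shares. Whether linked sequence around *crim1* plays a part in the row of *ctsl.1* was not tested. The nearest other row to *ambp* was *stoml2*, 81 genes away. The assembly is not the one the reads were aligned to, so gene order is given without positions.

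**Figure D3:**
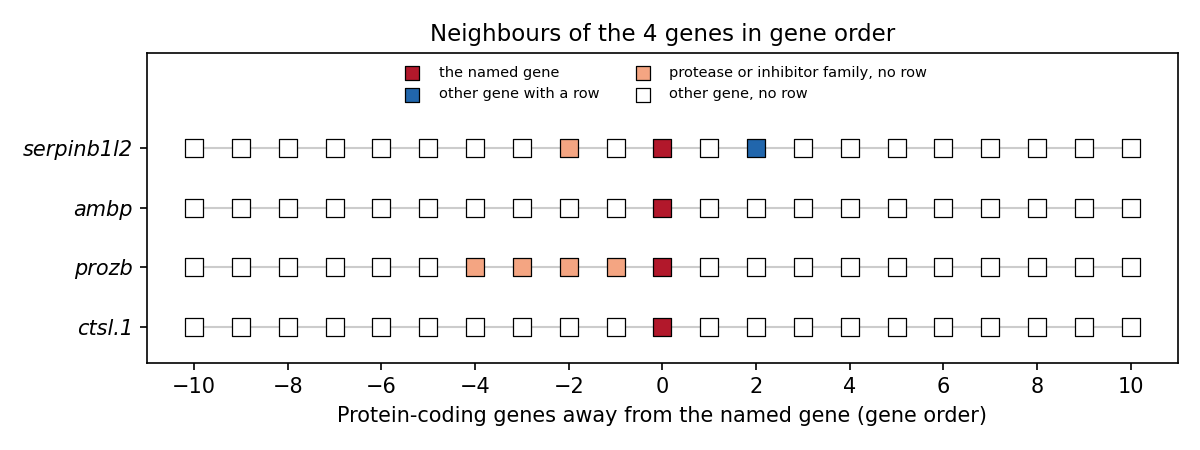
Protein-coding genes in order, up to 10 on each side of each of the 4 genes; the horizontal axis counts genes away from the named gene, shown in red, and a square is blue for another gene with a row, orange for a protease or inhibitor gene without one and white for the rest. *prozb* has 4 orange neighbours directly before it, and *ftr79*, 2 genes from *serpinb1l2*, is the 1 blue square. Rows whose symbol matches no RefSeq gene were not placed, so a white or orange square means no row by symbol.

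The targeted gene *crim1* has a row, with a mean normalized count of 371.9 over all libraries, which was not divided between the groups here. Of lists of marker genes, the lens list had 4 of 60 genes with a row, gamma M crystallins with means from 5014 to 357210, the latter the highest of the table. The pigment epithelium list had 1 of 7, *oca2*, at 499.2, and the photoreceptor and blood lists had 0 of 23 and 0 of 11. The list of liver plasma proteins includes *ambp* and *prozb*, which were chosen for having a row, so they do not count toward it. Without them it had 1 of 20 genes with a row, *cp*, at a mean of 252.5. Over all protein-coding genes, 0.529% match a row by symbol. A missing row does not show that a gene was absent from the eye, so nothing is read from the counts of these lists. The part of RNA from other tissues in the levels of *ambp* and *prozb* was not tested.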

How the data were processed

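The libraries were made from cDNA that was linearly amplified from total RNA, and differences between genes in amplification were not tested. The authors used BBDuk to trim single-end reads of 50 bases, STAR to align them to GRCz11, RSEM to estimate gene counts and DESeq2 to compare the groups. The submitters' processing notes also name FastQC. For none of these tools is a version given in the sources used here. The deposited signal is the mean normalized count over all libraries, 1 value a gene. The other 4 columns of the table hold the log2 fold change of the authors' comparison, its standard error, the p-value and the adjusted p-value, and were not used. None of the columns holds values of single libraries, so the planned count test per gene, the depth per library and the replicate spread did not enter any step. Libraries of 72 hpf eyes were grouped by title.

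Rows were matched by symbol: 143 of 223 to a RefSeq protein-coding gene of assembly GRCz12tu, used for names and gene order, and 207 IDs to the table of gene names. From the means were computed ranks, ratios to the median and counts by family. Families were found by symbol. By symbol too, 26 genes whose symbols begin alike were left out as belonging elsewhere, without a check of gene descriptions. Coding lengths and protein sequences were not used here. The named genes are the 4 genes, rows of the families, *crim1*, marker rows, and neighbours by level or gene order; the last of these were chosen after their values were seen. Members and lists were chosen with earlier results of these data known. Ranking was tested on made-up values. Calculations were made with pandas 2.3.3, NumPy 2.4.6 and SciPy 1.17.1 in Python 3.11.15, and plots with Matplotlib 3.10.9.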

Additional observations from a re-analysis of the deposited data

How the results depend on the processing

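No paired analysis was possible because the analysis had 1 mean per gene and no values of single libraries. Count fits, filters on counts and fits without each replicate were likewise not run. The comparisons per coding length and of protein sequences were not run either, since lengths and sequences were not used here. Among rows without a clone-based name, the share of rows with a higher mean rose from 26.01% to 32.8% for *serpinb1l2*, from 48.9% to 58.0% for *ctsl.1*, from 55.2% to 65.5% for *ambp* and from 61.0% to 71.4% for *prozb*, since other rows were ranked. With RefSeq synonyms, an alternative chosen after seeing the data, 3 in place of 1 cathepsin rows were found. Against 3 other middles of the table (the geometric mean, and the medians of rows without a clone-based name and of rows with a mean of 20 or more), the log2 ratio was 0.72 to 1.04 for *serpinb1l2*, -0.72 to -0.40 for *ambp*, -0.96 to -0.64 for *prozb* and -0.40 to -0.07 for *ctsl.1*. *ctsl.1* lay above the median of all rows and below each of these 3.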
